A study of Homo sapiens with 9 samples.

Results

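The comparison described here set Hep3B cells transfected with a nonsense siRNA against untreated Hep3B cells, both controls in a study of YAP. It used the 3 arrays titled as nonsense siRNA and the 3 titled as untreated, 6 of the 9 arrays in the series, and 1 value for each of 18417 genes taken from probe sets that match a single gene. Hep3B is a human hepatocellular carcinoma line. Cells of all groups grew in full medium for 24 h. The transfected cells then received siRNA with Oligofectamine, a lipid transfection reagent, and total RNA was taken after a further 24 h. The untreated cells are labelled only as untreated, so the lipid reagent and the nonsense duplex cannot be told apart in this comparison. Their labels repeat the protocol of the transfected cells and give no harvest time for cells without siRNA, so time in culture cannot be told apart from transfection either. The 3 YAP siRNA arrays, transfected in the same way with a YAP-specific siRNA, share the estimate of spread and are given beside the results. Hep3B is the line named in the sample descriptions, although HUH stands in every title; the liver genes AFP and ALB lay at the 99.97 and 99.7 percentiles of signal over genes, and such genes do not tell liver lines apart. The labels do not say whether arrays of the same treatment had separate cultures, and every p-value then measures only the spread between these samples, which may be technical.

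A small interfering RNA is a short duplex whose guide strand is loaded into an Argonaute protein. The loaded complex cuts transcripts that match the whole guide, and can lower transcripts that match only its seed, the bases near its 5′ end, in the manner of a microRNA. A nonsense duplex is designed to match no transcript of the cell along its whole length, and carries the same lipid, the same duplex load and its own seed. Double-stranded RNA can also be sensed by RIG-I, MDA5, TLR3 and PKR, which leads to interferon and stress responses in cells that have these pathways.

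Nonsense siRNA replicate 2 stood apart from the other arrays of its group. Across genes, which are not independent replicates, its Pearson's r was 0.9942 with nonsense siRNA replicate 1 and 0.9926 with replicate 3, below its 0.9946 and 0.9954 with untreated replicates 1 and 2, while nonsense siRNA replicates 1 and 3 had r = 0.9969 with each other. With untreated replicate 3 its r was 0.9936. Other arrays crossed groups too. Untreated replicate 3 and YAP siRNA replicate 3 had r = 0.9943 with each other. Untreated replicate 3 had 0.9934 with untreated replicate 1, and YAP siRNA replicate 3 had 0.9935 with YAP siRNA replicate 2. The mean log2 signal of 175 small nucleolar RNA genes was 6.997, 6.93 and 6.96 on nonsense siRNA replicates 1 to 3 and 6.95, 6.94 and 6.84 on untreated replicates 1 to 3. It was 6.94, 6.90 and 6.84 on YAP siRNA replicates 1 to 3. By this measure nonsense siRNA replicate 2 lay within the untreated range, and the lowest arrays were untreated replicate 3 and YAP siRNA replicate 3. Array medians ran from 7.29 to 7.34. Main results are given with and without nonsense siRNA replicate 2.

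Of the 18417 genes, 113 (0.614%) differed between nonsense siRNA and untreated cells by limma at an adjusted p under 0.05. After nonsense siRNA 62 of them were higher (0.337%) and 51 lower (0.277%). The changes were small. Among the genes that passed, the median difference was 0.35 on the log2 scale for those that rose and -0.29 for those that fell, and 3 rose and 3 fell by at least 0.5. Without nonsense siRNA replicate 2 the same test called 1470 genes, 1031 higher (5.60%) and 439 lower (2.38%), and all 113 were still called. That array was picked for its likeness to untreated arrays, the other side of this comparison. Leaving it out favours more calls, so counts from that fit, here and below, are not independent support. Without nonsense siRNA replicate 1, 11 of the 113 were still called, and 16, 16, 15 and 23 without nonsense siRNA replicate 3 and untreated replicates 1, 2 and 3. Without YAP siRNA replicates 1, 2 and 3 the numbers still called were 53, 63 and 113. With the small nucleolar RNA level of each array added as a covariate (an alternative set once the data had been seen), 31 genes passed and 27 of them were among the 113. Centring each array on its median left 54 genes higher and 23 lower, so the share of calls that were higher went from 54.9% to 70.1%. Quantile normalization moved it the other way, to 46.7%, with 71 genes higher and 81 lower.

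**Figure D1:**
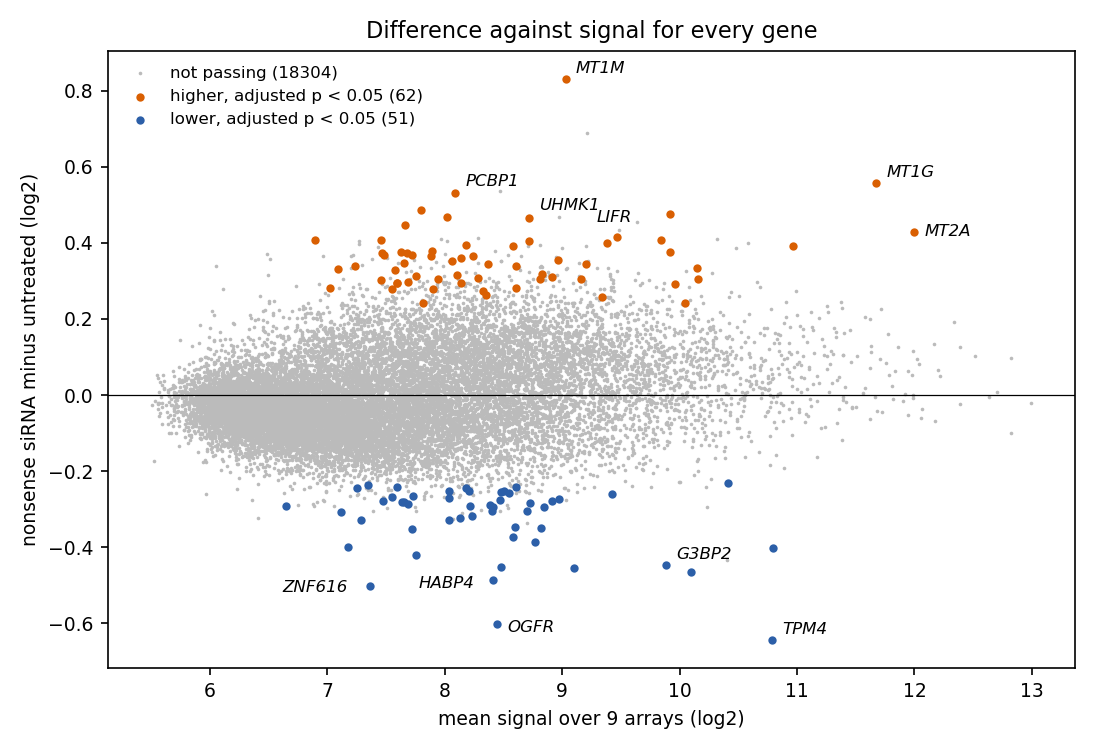
Each point is 1 of 18417 genes, placed by its mean log2 signal over 9 arrays and by the log2 difference between nonsense siRNA and untreated cells. The 62 genes that rose (orange) and the 51 that fell (blue) lie beyond about 0.23 on either side of 0, with MT1M at 0.83 the highest and TPM4 at -0.64 the lowest.

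The arrays of both groups did not overlap in any of the 113 genes, where 8.90% of all genes had all 3 nonsense siRNA arrays above all 3 untreated arrays and 13.8% had them below. Replicate 2 was the nonsense siRNA array nearest to the untreated mean in 48 of the 62 higher genes and in 25 of the 51 lower genes. In the median gene that rose it showed 73.9% of the difference shown by replicates 1 and 3, and in the median gene that fell 93.9%. All 3 nonsense siRNA arrays lay above all 6 other arrays, YAP siRNA included, in 38 of the 62 genes that rose. They lay under all 6 in 43 of the 51 that fell. Over all genes 2.95% and 4.18% did so. The genes that passed already had no overlap with untreated arrays, so a closer background is the genes without such overlap. Among these, 544 of 1639 lay above all 6 and 769 of 2544 under all 6. The genes that passed were also selected for a large nonsense siRNA difference, which favours lying beyond the YAP siRNA arrays. The shares therefore cannot be compared like for like.

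**Figure D2:**
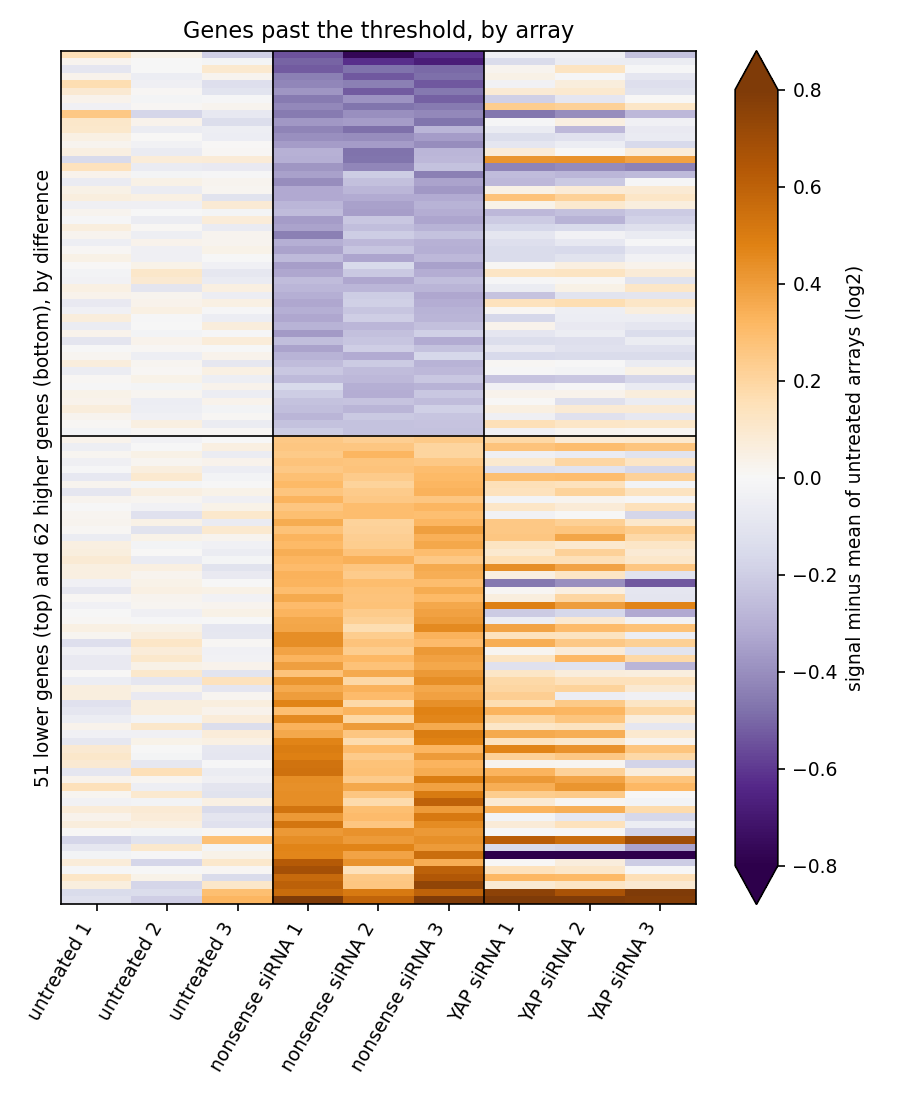
Rows are the 113 genes that passed, 51 lower ones above the line and 62 higher ones beneath it, and columns are the 9 arrays. Colour gives the log2 signal minus the mean of the untreated arrays, on a scale that saturates at 0.8 in each direction; among the higher genes the column of nonsense siRNA replicate 2 is paler than those of replicates 1 and 3.

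The 10 genes given first passed in every fit, with all 9 arrays and with each of the 9 left out in turn; 8 of them fell and 2 rose. OGFR, which encodes the receptor of the opioid growth factor, read 8.70, 8.67 and 8.66 on untreated replicates 1 to 3 and 8.17, 8.06 and 8.0005 on nonsense siRNA replicates 1 to 3. It fell by 0.60 to 65.9% of the untreated level (SE 0.0558, adjusted p = 0.000277), and the YAP siRNA arrays read 8.53, 8.61 and 8.62. Every nonsense siRNA array lay under the other 6. Against the same untreated arrays YAP siRNA changed 3.09% of all genes, 1.63% higher and 1.46% lower, and OGFR was not among them (-0.09, adjusted p = 0.467). TPM4, a tropomyosin gene whose protein winds along actin filaments, read 11.19, 11.07 and 10.85 in untreated cells and 10.49, 10.28 and 10.42 after nonsense siRNA. It fell by 0.64 to 64.0% (adjusted p = 0.00343), and its dimmer second probe set fell as well, by 0.40 (adjusted p = 0.00554). The untreated arrays of TPM4 were more spread than those of OGFR, but the lowest of them still lay above every nonsense siRNA array.

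G3BP2, which encodes an RNA-binding protein of stress granules, read 9.94, 9.97 and 9.99 in untreated cells, 9.55, 9.50 and 9.52 after nonsense siRNA, and 10.20, 10.18 and 10.08 after YAP siRNA. The fall of 0.45 (SE 0.0519, adjusted p = 0.00166) was larger than the spread of either group. HABP4, which encodes an intracellular protein that binds RNA and hyaluronan, read 8.61, 8.53 and 8.61 against 8.14, 8.05 and 8.10, a fall of 0.49 (adjusted p = 0.00166). ZNF616, a zinc finger gene, read 7.43, 7.51 and 7.61 against 6.99, 7.04 and 7.02, a fall of 0.50 (adjusted p = 0.00166) seen on the brighter of its probe sets and not on the dimmer one, which differed by 0.01. With the mean of both probe sets ZNF616 fell short of the threshold, at -0.24 (adjusted p = 0.0505). In all 3 genes the groups did not overlap, and replicate 2 differed from the untreated mean by -0.47 in G3BP2, -0.54 in HABP4 and -0.48 in ZNF616.

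The membrane protein gene PCNX3 fell by 0.45 (adjusted p = 0.00343), and both of its probe sets passed. RIN2, which encodes an exchange factor for the endosomal GTPase RAB5, fell by 0.39 (adjusted p = 0.00372), and TUFT1, the tuftelin gene, fell by 0.37 (adjusted p = 0.00401). Against untreated cells the YAP siRNA arrays differed by -0.09 for PCNX3, -0.10 for RIN2 and -0.10 for TUFT1, and for HABP4 and ZNF616 by -0.02 and 0.05; none of these 5 values passed. Both comparisons use the same untreated arrays, so the values stand side by side and are not independent.

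The 2 rises that passed in every fit were UHMK1 and LIFR. LIFR encodes the receptor chain for leukaemia inhibitory factor, which signals together with gp130. Its signal was 9.35, 9.33 and 9.36 in untreated cells and 9.76, 9.78 and 9.76 after nonsense siRNA. LIFR rose by 0.42, which is 1.33-fold (SE 0.0564, adjusted p = 0.00401), and read 9.34, 9.35 and 9.17 after YAP siRNA. UHMK1, a serine/threonine kinase gene, read 8.87, 8.89 and 8.93 in untreated cells and 9.36, 9.28 and 9.45 after nonsense siRNA, a rise of 0.46 (adjusted p = 0.00225). After YAP siRNA it read 7.95, 7.89 and 7.84, so the groups lay in the order nonsense siRNA, untreated, YAP siRNA with no overlap.

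**Figure D3:**
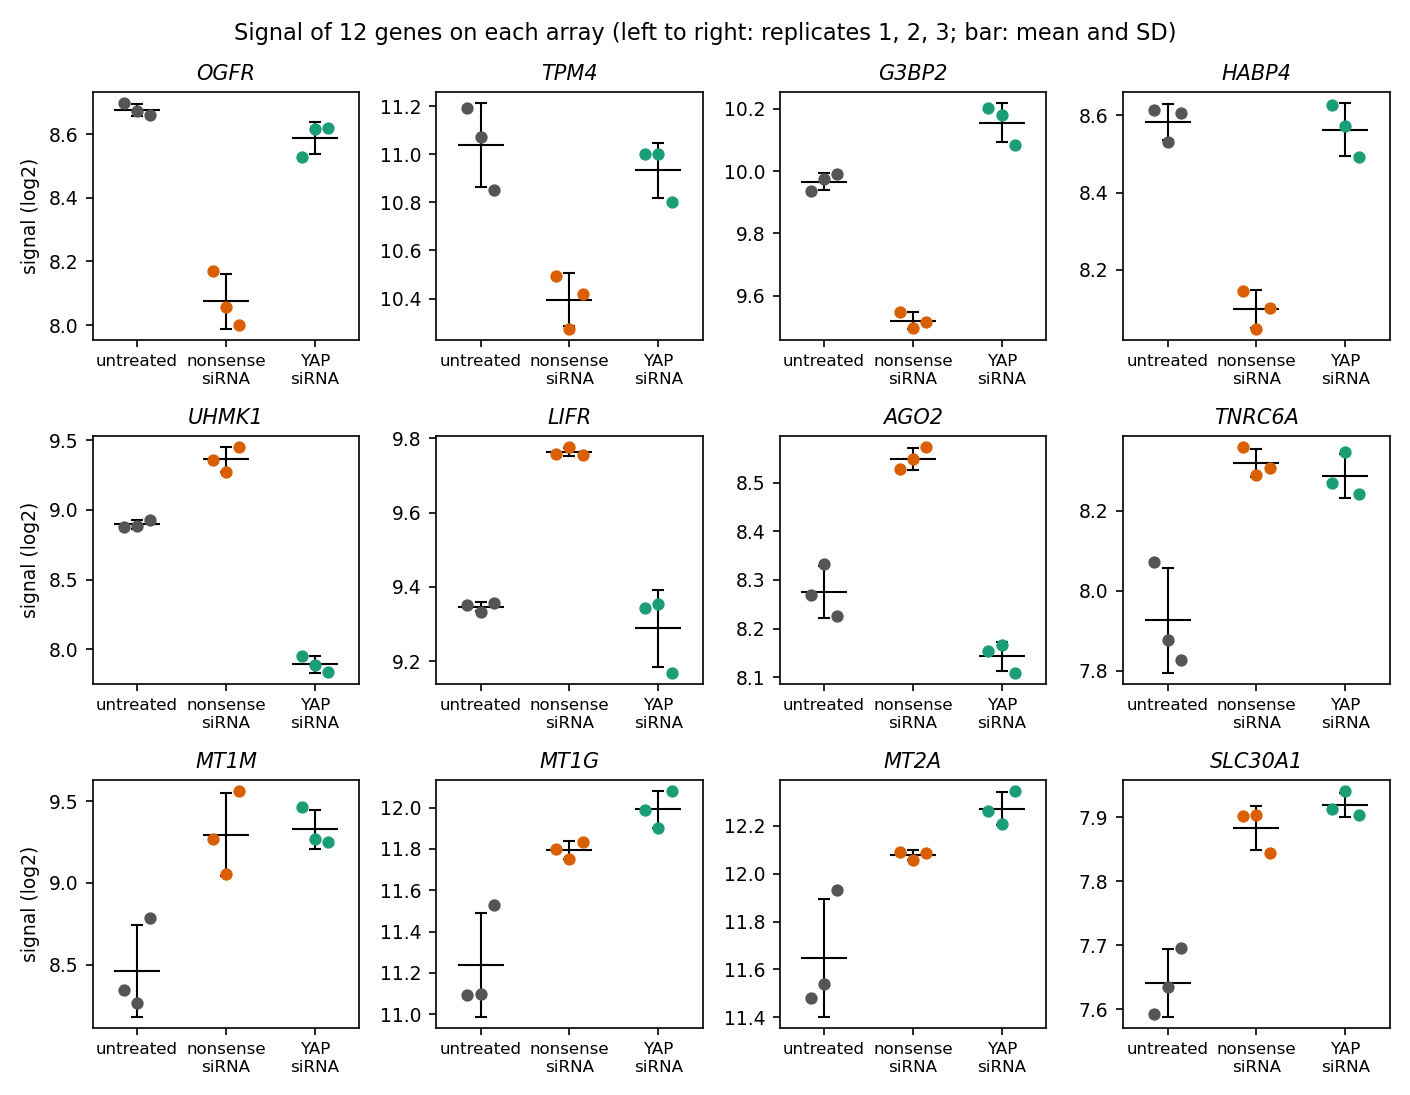
Log2 signal of 12 genes on each of the 9 arrays, with replicates 1, 2 and 3 from left to right within a group and bars for the mean and SD of 3 arrays. OGFR, TPM4, G3BP2 and HABP4 after nonsense siRNA lie under the other 6 arrays, LIFR lies above them, and MT1M, MT1G, MT2A and SLC30A1 are high in both transfected groups, with untreated replicate 3 the highest of the untreated arrays in each of these last 4.

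The metallothionein genes MT1M, MT1G and MT2A and the zinc exporter gene SLC30A1 rose after nonsense siRNA. Metallothioneins are small cysteine-rich proteins that bind zinc and copper, and their genes are switched on by the zinc-sensing factor MTF1, which binds metal response elements in the promoters. Of 11 measured genes of the zinc response list 4 rose and 0 fell, where 0.337% of all genes rose: MT1M, MT1G, MT2A and SLC30A1. The median difference over the list was 0.24, against -0.02 over all genes, and 10 of the 11 differences were above 0. The list's median was 0.24 for the mean of nonsense siRNA replicates 1 and 3 and 0.26 for replicate 2.

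MT1M read 8.34, 8.26 and 8.78 in untreated cells and 9.27, 9.06 and 9.56 after nonsense siRNA, and rose by 0.83, which is 1.78-fold (SE 0.126, adjusted p = 0.0112). MT1G read 11.09, 11.10 and 11.53 against 11.80, 11.75 and 11.84, a rise of 0.56 (SE 0.0924, adjusted p = 0.0181). MT2A read 11.48, 11.54 and 11.93 against 12.09, 12.06 and 12.09, a rise of 0.43 (SE 0.0892, adjusted p = 0.0452). In all 3 genes untreated replicate 3 lay well above untreated replicates 1 and 2, and still under every transfected array. SLC30A1, which encodes the zinc exporter ZnT1 of the plasma membrane, read 7.59, 7.63 and 7.70 in untreated cells and 7.90, 7.90 and 7.84 after nonsense siRNA, a rise of 0.24 (adjusted p = 0.0453).

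The other metallothionein genes measured did not pass with all arrays. MT1F differed by 0.40 (adjusted p = 0.0522), MT1H by 0.25 (0.161), MT1X by 0.24 (0.173), MT1B by 0.11 (0.361) and MT1E by 0.06 (0.625). MTF1 itself differed by 0.07 and the zinc importer gene SLC39A10 by -0.07. The pseudogene MT1JP, outside the list and named after its values were seen, rose by 0.32 (adjusted p = 0.0171). Members of this family are near copies of each other, so a probe signal cannot be given to 1 gene with certainty; of the 3 MT2A probe sets, those with the higher signal rose by 0.43 and 0.43 and the dimmest differed by 0.13 (adjusted p = 0.298).

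After YAP siRNA the differences from the same untreated arrays were 0.86 for MT1M, 0.75 for MT1G, 0.62 for MT2A, 0.28 for SLC30A1, 0.41 for MT1X and 0.45 for MT1JP, and each of these 6 passed. Without nonsense siRNA replicate 2 the nonsense siRNA differences were 0.95 for MT1M, 0.58 for MT1G, 0.44 for MT2A and 0.23 for SLC30A1, all passing. In that fit 6 of the 11 genes were higher, where 5.60% of all genes were, the added ones being MT1F (0.43, adjusted p = 0.0149) and MT1X (0.31, adjusted p = 0.0482). These calls were lost with some arrays left out. MT1M reached an adjusted p of 0.0631 without untreated replicate 1, and without nonsense siRNA replicate 1 the values were 0.0971 for MT1G, 0.227 for MT2A and 0.252 for SLC30A1. MT2A also missed the threshold with quantile normalization (adjusted p = 0.0600) and with the mean of its probe sets (0.0633), and SLC30A1 with the small nucleolar RNA covariate (0.0761).

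MTF1 is known to bind metal response elements, and 3 promoters are printed to show where the core letters of that element lie: those of the 2 genes that rose and had an entry, and that of MT1X. Each sequence is the 250 bases before the start site in RefSeq's GRCh38.p14 table, 5′ to 3′ on the gene's strand, with every match to TGCACNC or TGCGCNC on either strand in capitals. The window of MT2A is chr16:56608334-56608583 (plus strand), that of MT1X is chr16:56682220-56682469 (plus strand) and that of SLC30A1 is chr1:211579162-211579411 (minus strand).
MT2A: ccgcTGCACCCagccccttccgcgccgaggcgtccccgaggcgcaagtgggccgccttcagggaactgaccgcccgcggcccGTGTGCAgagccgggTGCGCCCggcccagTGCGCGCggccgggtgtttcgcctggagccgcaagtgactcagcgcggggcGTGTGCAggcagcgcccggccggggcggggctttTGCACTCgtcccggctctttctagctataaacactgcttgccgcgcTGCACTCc
MT1X: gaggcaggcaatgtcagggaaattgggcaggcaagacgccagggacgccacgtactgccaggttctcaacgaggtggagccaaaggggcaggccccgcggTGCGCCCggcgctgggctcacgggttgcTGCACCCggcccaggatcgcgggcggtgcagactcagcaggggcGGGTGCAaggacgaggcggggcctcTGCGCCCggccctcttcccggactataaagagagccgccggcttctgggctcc
SLC30A1: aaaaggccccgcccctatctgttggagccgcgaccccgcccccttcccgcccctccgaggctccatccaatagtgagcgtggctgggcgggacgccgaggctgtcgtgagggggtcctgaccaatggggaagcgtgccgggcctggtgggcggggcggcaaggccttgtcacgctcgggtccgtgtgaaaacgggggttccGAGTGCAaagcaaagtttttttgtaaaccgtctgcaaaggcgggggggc

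MT2A had 7 matches, MT1X 4 and SLC30A1 1. Of the 35116 promoter windows of this length, 0.0313% had at least 7 matches, 0.370% at least 4 and 24.8% at least 1, so that a single match as in SLC30A1 is common. Of the 12 genes listed, 7 had a promoter entry: besides those printed, MT1H had 8 matches, MT1B had 3, and SLC39A10 and MTF1 had 0. MT1A, MT1E, MT1F, MT1G and MT1M had no entry. The motifs differ from each other at 1 base. A match describes these letters and is not a measured site.

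The machinery that uses small RNAs was measured next. Of 17 RNA interference and microRNA genes 2 rose, AGO2 and TNRC6A, and 0 fell, where 0.337% of all genes rose and 0.277% fell; the list median was 0.07. In the fit without nonsense siRNA replicate 2, 3 were higher and 1 lower, where 5.60% and 2.38% of all genes were. AGO2 encodes the Argonaute that cuts its target; it read 8.27, 8.33 and 8.23 in untreated cells and 8.53, 8.55 and 8.57 after nonsense siRNA. The rise was 0.27, or 1.21-fold (SE 0.0509, adjusted p = 0.0266), and replicate 2 lay between the other arrays of its group. TNRC6A encodes the GW182 scaffold that joins Argonaute to the deadenylation complex; it read 8.07, 7.88 and 7.83 against 8.36, 8.29 and 8.31, a rise of 0.39 (SE 0.0638, adjusted p = 0.0157).

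After YAP siRNA AGO2 read 8.15, 8.17 and 8.11, a difference of -0.13 (adjusted p = 0.209), whereas TNRC6A read 8.27, 8.35 and 8.24, a rise of 0.36 (adjusted p = 0.00449). DICER1, which encodes the nuclease that makes microRNAs, differed by 0.18 (adjusted p = 0.134), LIN28B, whose protein blocks let-7 maturation, by 0.35 (0.101), and AGO1, AGO3 and AGO4 by -0.02, 0.11 and 0.11. Leaving out nonsense siRNA replicate 1 gave adjusted p = 0.160 for AGO2 and 0.107 for TNRC6A, and with the small nucleolar RNA covariate 0.0835 and 0.0578.

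Genes of the response to double-stranded RNA did not pass. Of 33 interferon-stimulated genes 0 passed by limma, with 5 at an unadjusted p under 0.05 where 19.5% of all genes had one, and the list median was -0.03. IFIT1, OAS1 and ISG15 differed by 0.04 (SE 0.0570), -0.05 (SE 0.0678) and -0.19 (SE 0.0744), and the members ran from -0.19 to 0.22 (IFIT5). These genes were dim, with a median signal of 6.68 where that over all genes was 7.31, which limits what could be seen. CXCL10, an interferon-induced chemokine gene, differed by 0.17 (adjusted p = 0.133) after nonsense siRNA and by 0.48 after YAP siRNA.

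Of 20 genes of RNA sensing and innate signalling 0 passed by limma, with 3 at an unadjusted p under 0.05 and a median of -0.03. The sensor genes RIGI, IFIH1 and TLR3 differed by 0.05, 0.02 and -0.06. EIF2AK2, which encodes the double-stranded RNA-dependent kinase PKR, differed by 0.28 (SE 0.0721, adjusted p = 0.0822), the highest value of the list. It passed without nonsense siRNA replicate 2 (difference 0.34, adjusted p = 0.0145) and without YAP siRNA replicate 3 (adjusted p = 0.0482). None of 15 NF-kB and inflammatory genes passed by limma, with 6 at an unadjusted p under 0.05; CCL20 had the highest difference, 0.39 (adjusted p = 0.126), and ICAM1 the lowest, -0.21. Leaving out nonsense siRNA replicate 2 gave 2 higher and 1 lower RNA sensing genes, 2 higher NF-kB and inflammatory genes, and 0 interferon-stimulated genes in either direction. The shares over all genes were then 5.60% higher and 2.38% lower. With all arrays 19.5% of all genes had an unadjusted p under 0.05.

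Among stress lists, 1 of 21 genes of the unfolded protein and integrated stress responses passed, where 0.614% of all genes did. TRIB3, a pseudokinase gene induced by ATF4, read 8.26, 8.22 and 8.22 in untreated cells and 7.89, 8.03 and 7.79 after nonsense siRNA, a fall of 0.33 (SE 0.0592, adjusted p = 0.0246), and it fell by 0.27 after YAP siRNA. Other genes of these responses did not pass, with DDIT3 at 0.08, ATF3 at 0.01 and the chaperone gene HSPA5 at 0.26 (adjusted p = 0.0815). By limma 0 of 12 heat shock genes and 0 of 15 genes of the oxidative stress response passed, with 5 and 4 at an unadjusted p under 0.05, where 19.5% of all genes had one. HMOX1 differed by 0.08. Of the heat shock and oxidative stress genes, 1 and 3 were higher without nonsense siRNA replicate 2, where 5.60% of all genes were. Of 16 p53 target genes 1 fell and 0 rose, where 0.277% and 0.337% of all genes did. The one that fell was PLK3, a polo-like kinase gene, by 0.27 (adjusted p = 0.0452), and CDKN1A and GDF15 differed by -0.05 and 0.07. Both calls were lost when nonsense siRNA replicate 1 was left out (adjusted p = 0.172 for TRIB3 and 0.268 for PLK3). Without nonsense siRNA replicate 2, the unfolded protein and integrated stress list and the p53 list each had 2 genes higher and 1 lower. That fit called 5.60% of all genes higher and 2.38% lower.

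Further falls by size came from genes of varied roles. SETD7, a lysine methyltransferase gene, fell by 0.47, and NOLC1, whose nucleolar protein assists the assembly of small nucleolar ribonucleoproteins, fell by 0.45 (adjusted p = 0.0112). GANAB, which encodes the catalytic subunit of the endoplasmic reticulum glucosidase II, fell by 0.40 and the Mediator subunit gene MED11 fell by 0.35. For these 4 genes the YAP siRNA arrays differed from untreated cells by -0.03, 0.02, 0.0031 and 0.05. FGFR3, a fibroblast growth factor receptor gene, fell by 0.35, and AMH, the anti-Müllerian hormone gene, fell by 0.42. Both were lower after YAP siRNA as well, by 0.42 and 0.38.

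STX12, an endosomal syntaxin gene, went in opposite directions in the transfected groups. It read 8.65, 8.87 and 8.88 in untreated cells, 8.50, 8.33 and 8.52 after nonsense siRNA and 9.22, 9.23 and 9.18 after YAP siRNA. It fell by 0.35 with nonsense siRNA (SE 0.0694, adjusted p = 0.0399) and rose by 0.41 with YAP siRNA (adjusted p = 0.00312). These calls too were lost with single arrays left out, with adjusted p reaching 0.0739 for SETD7 and 0.0829 for GANAB (both without nonsense siRNA replicate 3), 0.0631 for NOLC1 and 0.0967 for MED11 (without untreated replicate 1), and 0.206 for FGFR3, 0.230 for AMH and 0.165 for STX12 (without nonsense siRNA replicate 1).

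Several of the larger rises were weaker on nonsense siRNA replicate 2. RPL31, a gene of the large ribosomal subunit, read 9.73, 9.73 and 9.74 in untreated cells and 10.41, 9.88 and 10.34 after nonsense siRNA. It rose by 0.48 (SE 0.0999, adjusted p = 0.0453), by 0.64 on replicates 1 and 3 and by 0.14 on replicate 2. The dimmer second probe set of RPL31 differed by 0.335 and did not pass (adjusted p = 0.0860). Among other settings, its call was lost with median centring (adjusted p = 0.0649), the mean of both probe sets (0.0559) and the 6 compared arrays alone (0.0780). PCBP1, which encodes a poly(C)-binding protein, read 7.94, 7.71 and 7.99 against 8.48, 8.14 and 8.62, and IPMK, an inositol polyphosphate kinase gene, 7.66, 7.58 and 7.40 against 8.12, 7.80 and 8.19. PCBP1 rose by 0.53 (adjusted p = 0.0255) and IPMK by 0.49 (adjusted p = 0.0266). OTUD4, a deubiquitinase gene, rose by 0.41, PTGR1, a prostaglandin reductase gene, by 0.41, and RRP15 and BRIX1, of ribosome assembly, by 0.40 and 0.40.

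In each of these 7 genes replicate 2 was the nonsense siRNA array nearest to the untreated ones. With nonsense siRNA replicate 1 left out, adjusted p = 0.261 for RPL31, 0.198 for PCBP1, 0.206 for IPMK, 0.206 for OTUD4, 0.214 for PTGR1, 0.227 for RRP15 and 0.225 for BRIX1. With the small nucleolar RNA covariate they ran from 0.0664 for PTGR1 to 0.173 for RPL31. PRTG, the gene of the immunoglobulin superfamily protein protogenin, was unlike them, with 8.06, 8.06 and 7.99 after nonsense siRNA against 7.50, 7.69 and 7.57 in untreated cells. It rose by 0.45 (SE 0.0638, adjusted p = 0.00621) and lost its call without nonsense siRNA replicate 1 alone (adjusted p = 0.0540).

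Lists of growth genes differed between the nonsense siRNA arrays, as a description without a test. These lists were bright, with median signals of 9.96 (proteasome), 9.09 (mitosis) and 9.04 (respiratory chain) against 7.31 over all genes. Signal over all genes was also more spread on replicates 1 and 3. Its quartiles were 6.60 and 8.24 on replicate 1, 6.60 and 8.26 on replicate 3, and 6.63 and 8.21 on replicate 2. Whether the list differences belong to these genes or to bright genes at large was not tested. Over all genes 19.5% had an unadjusted p under 0.05 with all arrays, and 5.60% were called higher without replicate 2. For 24 proteasome subunit genes the median difference was 0.20 on nonsense siRNA replicates 1 and 3 and -0.01 on replicate 2, and 0 passed by limma with all arrays (7 at an unadjusted p under 0.05) while 7 were higher without replicate 2. PSMA3, a core subunit gene, differed by 0.67 on replicates 1 and 3 and by -0.04 on replicate 2. For 24 mitotic genes these medians were 0.18 and 0.03, with 0 passing (10 at an unadjusted p under 0.05) and 6 higher without replicate 2; CDK1, which encodes the kinase that starts mitosis, differed by 0.53 and 0.04. For 27 respiratory chain genes they were 0.13 and -0.02, and 0 passed (7 at an unadjusted p under 0.05) against 9 higher without replicate 2.

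Cytosolic ribosomal protein genes had medians of 0.14 on replicates 1 and 3 and 0.03 on replicate 2. Of 41 measured RPL31 and RPL22 rose and 0 fell, and 12 were higher without replicate 2. Over all genes 0.337% rose with all arrays and 5.60% without replicate 2. RPL22 rose by 0.36 (adjusted p = 0.0399). For 26 genes of DNA replication the medians were 0.12 and 0.05, and for 16 of cholesterol synthesis 0.10 and 0.02. In these lists 0 passed by limma, with 8 and 5 at an unadjusted p under 0.05, and without replicate 2 6 and 4 were higher; PCNA, the polymerase clamp gene, differed by 0.31 (adjusted p = 0.102) and HMGCS1, a gene of cholesterol synthesis, by 0.23 (0.153). The part of replicate 2 in these differences was not tested.

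Of 36 replication-dependent histone genes H2BC7 and H1-2 rose and 0 fell, where 0.337% of all genes rose, and without replicate 2 there were 6 higher, where 5.60% of all genes were. The list median was 0.12 on replicates 1 and 3 and 0.11 on replicate 2. H2BC7 read 7.95, 7.70 and 7.98 in untreated cells and 8.50, 8.30 and 8.22 after nonsense siRNA, a rise of 0.47 (adjusted p = 0.0278). H1-2, a linker histone gene, read 7.53, 7.40 and 7.62 against 7.81, 7.82 and 7.81, a rise of 0.29 (adjusted p = 0.0496). Histone genes are close copies of each other, so the signal of 1 gene may hold that of others. After YAP siRNA the differences were -0.04 and -0.07, and both calls were lost on leaving out nonsense siRNA replicate 1 (adjusted p = 0.214 for H2BC7 and 0.246 for H1-2).

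**Figure D4:**
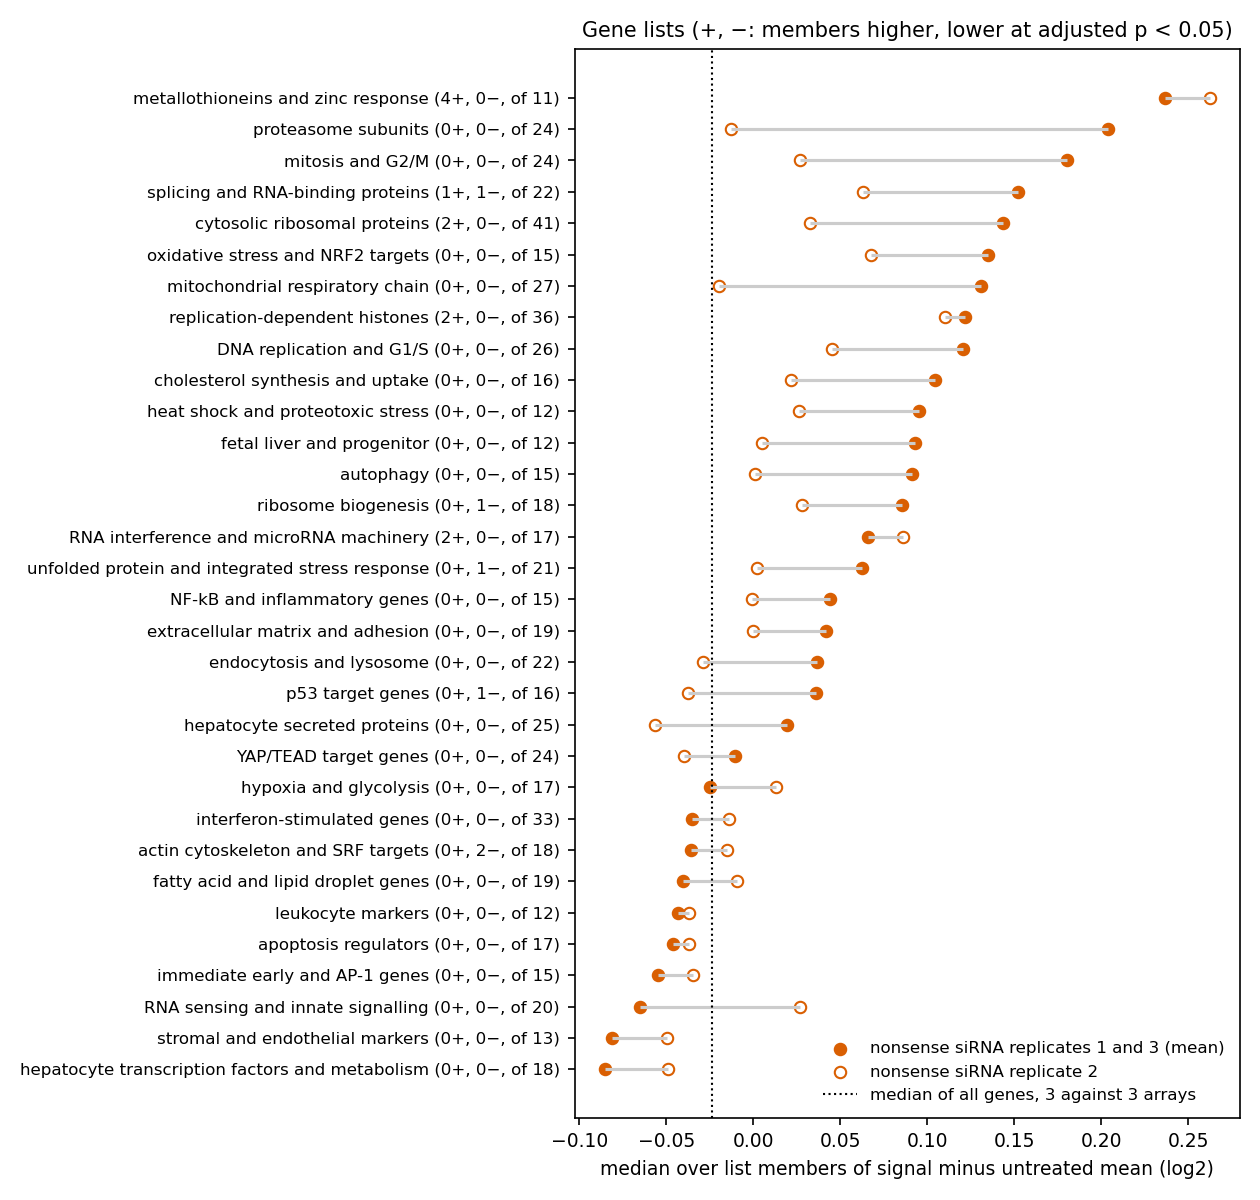
Each row is 1 of 32 gene lists, with the number of its measured members that were higher (+) or lower (−) at an adjusted p under 0.05. Filled circles give the median over the list of the mean of nonsense siRNA replicates 1 and 3 minus the untreated mean, open circles the same for replicate 2, in log2 units, and the dotted line the median of all genes, -0.02. Proteasome, mitosis and respiratory chain lists have circles far apart, and metallothionein, histone and RNA interference lists have them close together.

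With all arrays no gene of the liver or YAP target lists passed by limma. When nonsense siRNA replicate 2 was left out, 3 genes of secreted hepatocyte proteins and 1 YAP and TEAD target gene were higher and 1 hepatocyte factor gene was lower. Over all genes that fit had 5.60% higher and 2.38% lower. With all arrays 19.5% of all genes had an unadjusted p under 0.05. Of 25 genes of secreted hepatocyte proteins 0 passed by limma (2 at an unadjusted p under 0.05), with ALB at 0.10 (SE 0.0608) and AFP at 0.13 (SE 0.0559). Of 18 hepatocyte transcription factor and metabolism genes 0 passed (5 at an unadjusted p under 0.05), and the lowest was NR0B2, the gene of the bile acid-responsive repressor SHP, at -0.30 (adjusted p = 0.0570). Of 24 YAP and TEAD target genes 0 passed (5 at an unadjusted p under 0.05), the median was -0.02, and CCN2 differed by -0.06 (SE 0.0590). YAP1 had an adjusted p of 0.987 in this comparison. Of 18 actin and SRF target genes TPM4 and TUFT1, described above, were the members that fell and 0 rose. Over all genes 0.277% fell and 0.337% rose.

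Splicing and RNA-binding protein genes had PCBP1 rise and G3BP2 fall among 22, and ribosome biogenesis genes had NOLC1 fall among 18. Over all genes 0.337% rose and 0.277% fell, and without nonsense siRNA replicate 2 5.60% were higher and 2.38% lower. These lists, without nonsense siRNA replicate 2, had 7 and 4 genes higher and 1 lower each. In the other lists 0 passed by limma with all arrays: lysosome (4 of 22 at an unadjusted p under 0.05), autophagy (2 of 15), fatty acid genes (6 of 19), immediate early genes (4 of 15), hypoxia (3 of 17), matrix and adhesion (5 of 19), fetal liver (5 of 12) and apoptosis (4 of 17). Markers of other cell types did not pass either, with 2 of 12 leukocyte and 2 of 13 stromal and endothelial genes at an unadjusted p under 0.05. Their medians were -0.04 and -0.07. Over all genes 19.5% had an unadjusted p under 0.05. In the fit without nonsense siRNA replicate 2, each of these 10 lists had between 0 and 3 genes higher and between 0 and 2 lower.

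Of the 113 genes, 9 were dim, with a mean signal under the median of 7.31. CLIP4, CHEK2, RNPC3 and C5orf63 rose, by 0.41, 0.34, 0.33 and 0.28 (adjusted p = 0.0152, 0.0399, 0.0457 and 0.0399). CHEK2 encodes a DNA damage checkpoint kinase and RNPC3 a protein of the minor spliceosome. RBMXL2, IL17C, ZNF646, MOS and HLF fell by 0.40, 0.33, 0.31, 0.29 and 0.25 (adjusted p = 0.0246, 0.0452, 0.0171, 0.0246 and 0.0478). IL17C encodes a cytokine, MOS a kinase of the oocyte and HLF a transcription factor of the PAR family. A dimmer second probe set of RNPC3 differed by 0.03, and the mean of both by 0.18 (adjusted p = 0.141). On the 6 compared arrays alone CHEK2 (adjusted p = 0.0672), RNPC3 (0.0790), C5orf63 (0.0694) and HLF (0.0820) lost their calls, and median centring ended those of RNPC3 (0.0628), IL17C (0.0628) and HLF (0.0780). Each of the 9 lost its call in at least 4 of the 9 fits with 1 array left out.

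**Figure D5:**
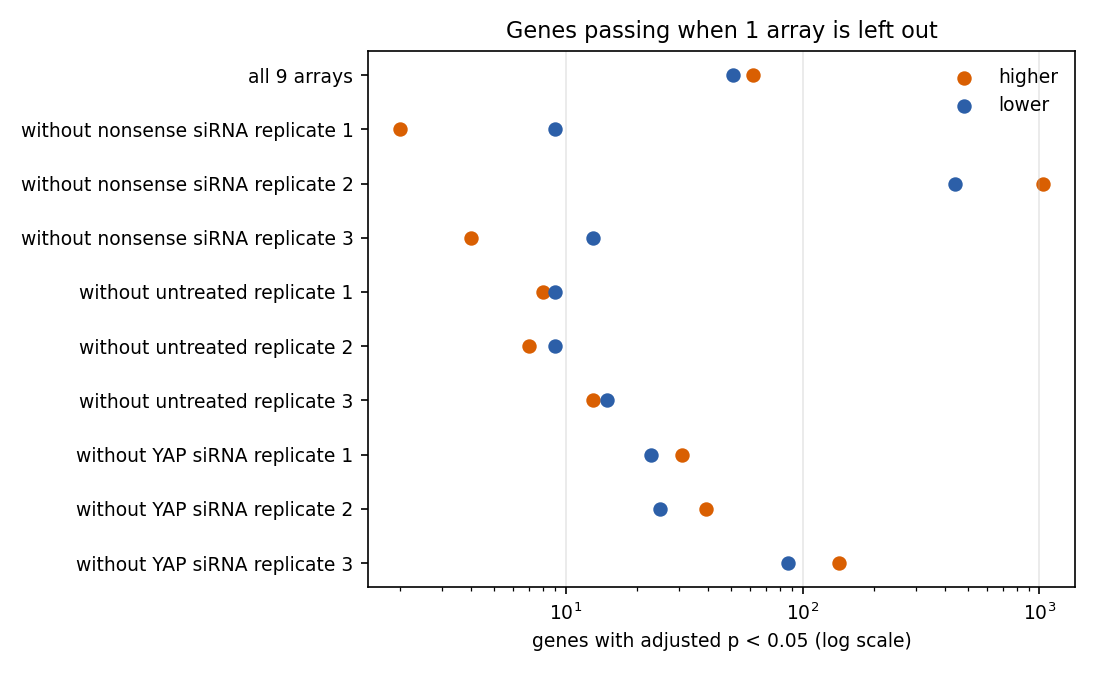
Number of genes at an adjusted p under 0.05 in the fit on 9 arrays and in the 9 fits with 1 array left out, on a log axis, with higher genes in orange and lower genes in blue. Leaving out nonsense siRNA replicate 2 gave 1031 higher and 439 lower genes, and leaving out any other array of the compared groups gave between 2 and 13 higher and between 9 and 15 lower.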

How the data were processed

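The deposited table held 33297 probe sets and 9 arrays. The authors' deposited values were taken as log2 array signals from their range; for background correction, summarisation and scaling the method is not given in the sources used here. Biotinylated cRNA was prepared by an Affymetrix procedure, per the labels' protocols. The supplied array annotation gave 1 gene to 19460 probe sets; 1754 with several genes and 12083 not listed were left out. The brightest probe set stood for a gene; values of second probe sets come from a fit over all 19460. Group means were estimated by limma 3.58.1 (R 4.3.3) from the 9 arrays together, with 9.29 prior and 6 residual degrees of freedom; the moderated test was two-sided, with Benjamini-Hochberg adjustment over 18417 genes. Every adjusted p is from this tool, and differences are on the log2 scale.

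The compared arrays and the 32 lists (636 of 693 genes measured) were chosen with earlier results of these data known. The rule named the 15 highest rises and 15 highest falls at or above the median signal with no overlap between groups, up to 5 dim genes in each direction (4 rose and 5 fell), up to 4 passing members per list, members of the metallothionein, RNA interference and interferon lists, and 25 fixed genes, 22 of them measured. Other genes that did not pass were named as ends of a list's range or as examples, after their values were seen. Tested on simulated data for this comparison with 18417 genes the fit recovered 81 of 100 changes of 0.3 and 100 of 100 of 0.5, with 7 false calls. How well the fit recovers changes on the deposited arrays, whose estimated weights ran from 0.453 to 2.66, was not tested. Alternatives were other scalings, filters, probe set rules, variance models, thresholds and arrays. Array weights and the small nucleolar RNA covariate were added after seeing the data. Figures used Python 3.11.15, pandas 2.3.3 and matplotlib 3.10.9. The number of arrays limits the precision.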

Additional observations from a re-analysis of the deposited data

How the results depend on the processing

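The 45 tracked genes that passed kept their direction in every alternative run. Their groups did not overlap, so leaving out 1 array could not have changed it. Of the 20 tracked genes that did not pass, 7 changed sign in at least 1 alternative: ATF3, CCN2, IFIH1, OAS1, RIGI, TLR3 and YAP1. With all arrays 113 genes passed, 62 higher and 51 lower. With 1 array left out the total ran from 11 to 1470, the higher genes from 2 to 1031 and the lower from 9 to 439. Estimated array weights gave 2620 genes, 1536 higher and 1084 lower, with weights of 0.453 for nonsense siRNA replicate 2 and 2.66 for replicate 1. YAP siRNA replicate 3 and untreated replicate 3 had low weights as well, 0.462 and 0.597. The small nucleolar RNA covariate gave 31, with 13 higher and 18 lower, the 6 compared arrays alone 67 with 24 lower, and an adjusted p under 0.01 left 11, with 3 higher and 8 lower. The fit on 6 arrays also used fewer samples, and the cause was not tested for any of these settings. Quantile normalization gave 152 genes, 81 of them lower, and median centring 77, with 23 lower. The mean of probe sets gave 109 genes, the filter on dim genes 143 and a trended variance 93. In the fit over all probe sets 115 probe sets passed.

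The labels do not say whether the replicate number in the titles pairs the samples. Deviations of same-numbered nonsense siRNA and untreated arrays had correlations of 0.07, -0.17 and 0.03 across genes. Those of different numbers ran from -0.15 to 0.13. With 3 arrays a group these values cannot decide whether the samples were paired. With the replicate block 65 genes passed, 37 higher and 28 lower, and 62 of them were among the 113.

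After array weighting EIF2AK2 (adjusted p = 0.00519), HMGCS1 (0.0115), MT1X (0.0109) and AFP (0.0445) passed. The files hold no measure of background, so how far dim genes lay above it is unknown here.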

Other observations

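Other genes that passed are given here as values, chosen after their values were seen. IL6ST, which encodes gp130, the partner chain of the LIF receptor, read 9.75, 9.66 and 9.57 in untreated cells and 10.16, 9.96 and 9.99 after nonsense siRNA, a rise of 0.38 (adjusted p = 0.0266), and the YAP siRNA arrays read 10.13, 10.09 and 9.93. All arrays of both siRNAs lay above the untreated ones. HIPK3, a homeodomain-interacting kinase gene, rose by 0.31 with nonsense siRNA (adjusted p = 0.0227) and fell by 0.46 with YAP siRNA (adjusted p = 0.000141), with 8.30, 8.37 and 8.34 in untreated cells, 8.67, 8.63 and 8.63 after nonsense siRNA and 7.88, 7.94 and 7.80 after YAP siRNA. IL1RAP, the interleukin 1 receptor accessory protein gene, rose by 0.32 and fell by 0.23 in the same comparisons. Without nonsense siRNA replicate 1 the adjusted p for nonsense siRNA was 0.214 for IL6ST, 0.158 for HIPK3 and 0.172 for IL1RAP.

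Of 13837 probe sets with several genes or no name, 0 passed by limma, and 1426 (10.3%) had an unadjusted p under 0.05. Of 173 microRNA genes 0 passed, with 25 at an unadjusted p under 0.05, where 19.5% of all genes had one.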
